A study of Mus musculus with 24 samples.

Results

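The collagen chain genes of the mouse were described across wounds of diabetic mice and across a macrophage line, as counts of messenger RNA read pairs. Members were all gene symbols in the deposited counts made of "Col", a type number, "a" and a chain number with nothing after it. This gave 44 genes among 52976 symbols, covering 27 numbered collagen types on 15 chromosomes. By textbook structure, 11 code for fibrillar chains, 6 for basement membrane network chains, 6 for beaded filament chains, 9 for fibril-associated chains (FACIT), 3 for short-chain network chains, 4 for transmembrane collagens, 2 for multiplexins, 1 for the anchoring fibril chain and 2 for other collagens. All 44 had at least 1 count in a wound library. After the filter on low counts 41 could be tested in wounds, and Col4a3, Col9a1 and Col10a1 could not.

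Each collagen molecule is a triple helix of chains, which may be copies of one chain or products of different genes. Fibrillar collagens form the tensile fibrils of dermis and scar, with type III prominent in early granulation tissue and type I in later matrix, while type IV networks, type XVII and type VII fasten epidermis to dermis. In a healing skin wound fibroblasts and myofibroblasts make most fibrillar collagen, keratinocytes make types XVII and VII, and endothelial cells, fat cells and muscle fibres are wrapped in type IV and type VI collagen.

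The wound groups were diabetic mouse wounds under the Fmoc-KYF-AgNCs-3S1C-Hyd2 hydrogel and wounds labelled diabetic control, each at days 1, 7 and 14, with 3 libraries a group. Per the series title the gel combines a peptide, Ag nanoclusters and a hydrogenase that tolerates oxygen, for hydrogen therapy driven by light; hydrogenases make or split molecular hydrogen. Strain, age, sex and how diabetes was induced are not given in the sources used here, and the titles name the hydrogel wounds TEOA and the control wounds Dia. RAW264.7, an established mouse macrophage line, gave 3 libraries labelled with a hydrogel of the same name stem (Hyd3, Hyd4 and Hyd5, 1 library each) and 3 labelled LPS, the bacterial lipopolysaccharide that activates macrophages, while the series text describes LPS-induced macrophages with or without the Hyd2 hydrogel. Whether the hydrogel libraries had also received LPS is not settled by these labels. Nothing in the labels says that replicates were separate animals or cultures, so p-values measure only the spread between these libraries.

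Wound libraries held 12.4 M to 27.1 M counted read pairs, and RAW264.7 libraries 17.9 M to 24 M. In CPM (read pairs per 1e6, with library sizes scaled by the trimmed mean of M values), the sum of 6 skeletal muscle markers was 5201 in control day 1 replicate 1, against 172390 and 110635 in the other control libraries of that day, and its 5 adipocyte markers summed to 47466 CPM against 7811 and 3540 CPM. Control day 14 replicate 1 had 6726 CPM of 8 fibroblast markers against 2030 and 1274 CPM in its group, and 505 CPM of 6 basal keratinocyte markers against 3774 and 5236 CPM. The 3 control libraries of day 7 were unusually alike, with a median chi-square per gene of 0.644 to 0.797 between pairs against 0.455 for sampling noise alone. They still differed beyond noise. Pairs of hydrogel libraries were at 1.29 to 2.31 at day 7 and at 1.80 to 5.39 at day 14. Pairs in both day 1 groups and in control day 14 were at 7.26 to 34.5. Pairs of RAW264.7 libraries were closer still without hydrogel, at 0.511 to 0.614, and were at 1.65 to 4.39 with it. Each library was counted as 1, and a difference beyond noise does not show that libraries came from separate animals or cultures.

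Collagen chains made up 0.225% ± 0.073 of all counts in hydrogel wounds and 0.287% ± 0.248 in control wounds at day 1 (SD, n = 3 libraries a group, as in all wound values). At day 7 the share was 0.263% ± 0.015 in hydrogel wounds and 1.28% ± 0.016 in control wounds. At day 14 it was 0.456% ± 0.069 in hydrogel wounds and 3.16% ± 1.54 in control wounds, or 2.34% without control replicate 1. The ranges overlapped at day 1, 0.155% to 0.301% against 0.141% to 0.574%, through control replicate 1 alone. Without that library the control mean was 0.144% (0.141% to 0.148%), below every hydrogel library. The ranges were apart at day 7 (0.251% to 0.280% against 1.27% to 1.30%) and day 14 (0.390% to 0.528% against 1.74% to 4.80%). In bulk tissue fewer cells of a type and less RNA per cell cannot be told apart.

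Per kilobase of exon, the day 1 hydrogel wounds had Col3a1 (71.1 CPM per kb), Col4a1 (66.5), Col4a2 (55.7) and Col1a1 (36.4) as their highest collagen levels, and each overlapped the next over libraries. In control wounds of day 1 the order was Col4a1 (117 CPM per kb), Col4a2 (97.2), Col17a1 (63.6) and Col6a1 (54.4), again with every neighbour overlapping. Those levels rested on control replicate 1, and without it Col17a1 came first (81.9 CPM per kb), before Col4a1 (62.2), Col4a2 (55.3) and Col6a1 (16.3), which no longer overlapped Col4a2. At day 7 hydrogel wounds held Col1a1, Col3a1 and Col17a1 at 57.3, 56.3 and 56.2 CPM per kb, with overlapping ranges and all above Col4a2 at 29.4. Control wounds of day 7 had Col3a1 at 555.9 CPM per kb, Col1a1 at 370.6 and Col6a1 at 101.6, none overlapping its neighbour. At day 14 Col1a1 led in hydrogel wounds at 143.6 CPM per kb and did not overlap Col3a1 at 54.4. Col3a1 and Col1a1 stood at 1287 and 1206 CPM per kb in control wounds of day 14 and overlapped, and both lay above Col1a2 at 279.3. Without control replicate 1 Col1a1 came first, at 842 CPM per kb, and Col3a1 stood at 584, still overlapping.

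The make-up of the collagen pool by class was also given per kilobase, as percent of the summed collagen level of a library. Fibrillar chains held 38.9% in hydrogel wounds against 16.5% in control wounds at day 1, 43.7% against 72.3% at day 7 and 54.8% against 79.7% at day 14. Basement membrane chains held 32.2% in hydrogel wounds against 41.7% in control wounds at day 1, 16.3% against 8.96% at day 7 and 10.4% against 3.12% at day 14. The transmembrane class, which was mostly Col17a1, held 16.7% in hydrogel wounds and 0.767% in control wounds at day 7. Its day 1 libraries overlapped, at 4.95% to 11.6% in hydrogel wounds and 3.05% to 36.4% in control wounds. Beaded filament chains held 12.6% in hydrogel wounds and 12.1% in control wounds at day 7. The fibrillar share did not overlap between the groups at any day and was higher in hydrogel wounds at day 1 and lower there at days 7 and 14.

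**Figure D1:**
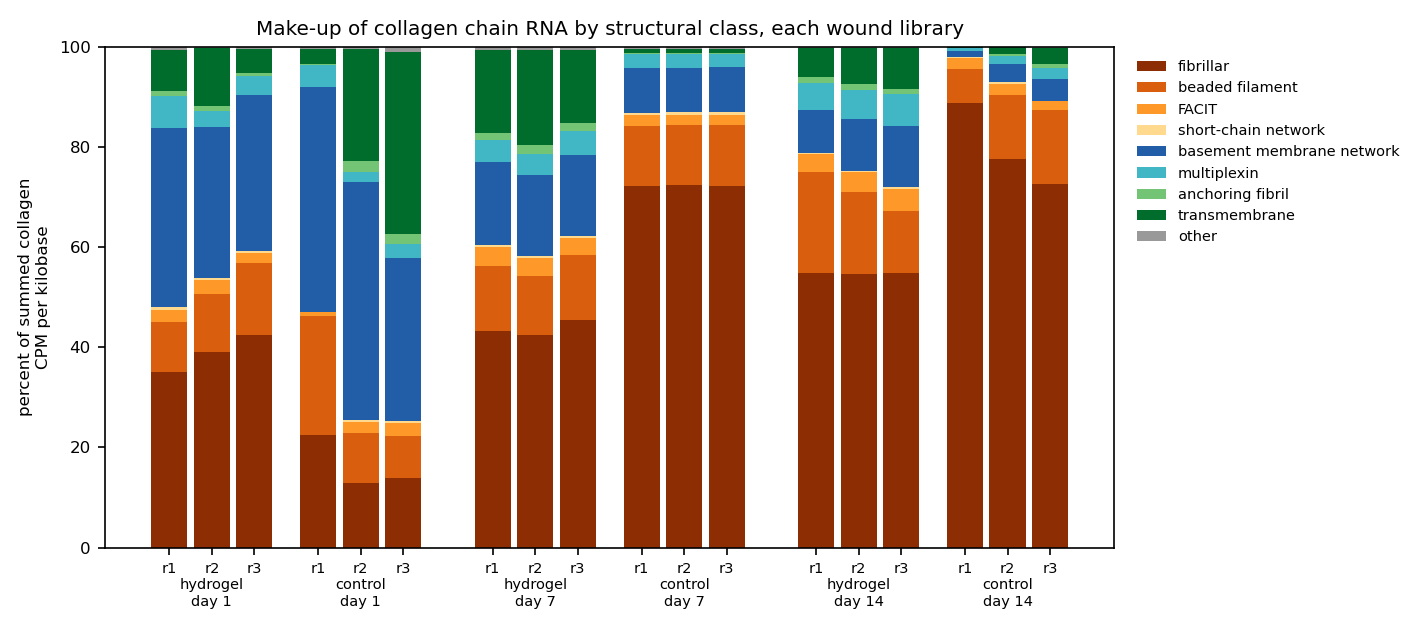
Stacked bars of the percent of summed collagen CPM per kb held by each structural class, 1 bar per wound library, hydrogel libraries left of control libraries within each day. Fibrillar chains average 43.7% in hydrogel wounds and 72.3% in control wounds at day 7, and the transmembrane class 16.7% and 0.767%.

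In the test of hydrogel against control at each day, 3 of the 41 tested chains were higher at day 1, 3 were higher and 15 lower at day 7, and 14 were lower at day 14 (edgeR quasi-likelihood test, adjusted p below 0.05 over all genes tested). Among all 17592 genes tested, 4.53% were higher and 3.02% lower at day 1, 9.86% higher and 11.7% lower at day 7, and 5.83% higher and 10.3% lower at day 14. The 7.32% of chains called at day 1 thus lay near the 7.55% of all genes, while 43.9% were called at day 7 against 21.6% of all genes and 34.1% at day 14 against 16.1%. These counts of 3, 18 and 14 chains ran from 1 to 7, 6 to 23 and 6 to 21 when 1 library was left out, with 6 to 9 at day 7 without any 1 of its own libraries, 8 and 6 at day 14 without hydrogel replicate 2 or 3, and 1 at day 1 without hydrogel replicate 3. They were 0, 29 and 9 with only the compared groups fitted, and 0, 0 and 6 with each group's day 7 libraries summed into 1. For lower chains at day 1 the edgeR count of 0 stood beside 3 at an unadjusted p below 0.05, 1 by DESeq2 and 1 by limma-voom, and for higher chains at day 14 the count of 0 stood beside 1 unadjusted, 0 by DESeq2 and 1 by limma-voom. The median log2 fold change of the 41 chains was 0.27 at day 1, −0.97 at day 7 and −0.95 at day 14, beside 0.04, 0.01 and 0.03 over all genes. Groups that did not overlap were seen for 7 chains higher at day 1 (9.57% of all genes, and 7.52% in the lower direction, which held no chain), for 25 lower and 5 higher at day 7 (34.9% and 35.3%), and for 20 lower and 2 higher at day 14 (20% and 23.8%).

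Chains lower at both day 7 and day 14 numbered 10, which is 66.7% of the day 7 list and 71.4% of the day 14 list: Col1a1, Col1a2, Col3a1, Col5a1, Col5a2, Col5a3, Col6a1, Col6a2, Col8a1 and Col14a1. Another 5 were lower at day 7 alone (Col4a1, Col6a3, Col11a1, Col15a1 and Col26a1) and 4 at day 14 alone (Col6a5, Col12a1, Col24a1 and Col28a1). The matching overlap of calls over all genes is not given here, so these shares do not set the chains apart from other genes. A call at 1 day and not at another does not show that the days differ, which was tested separately by interaction. The 18 tested chains that passed at no day were Col2a1, Col4a2, Col4a4, Col4a5, Col6a4, Col7a1, Col8a2, Col9a2, Col9a3, Col11a2, Col16a1, Col18a1, Col19a1, Col20a1, Col22a1, Col23a1, Col25a1 and Col27a1.

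**Figure D2:**
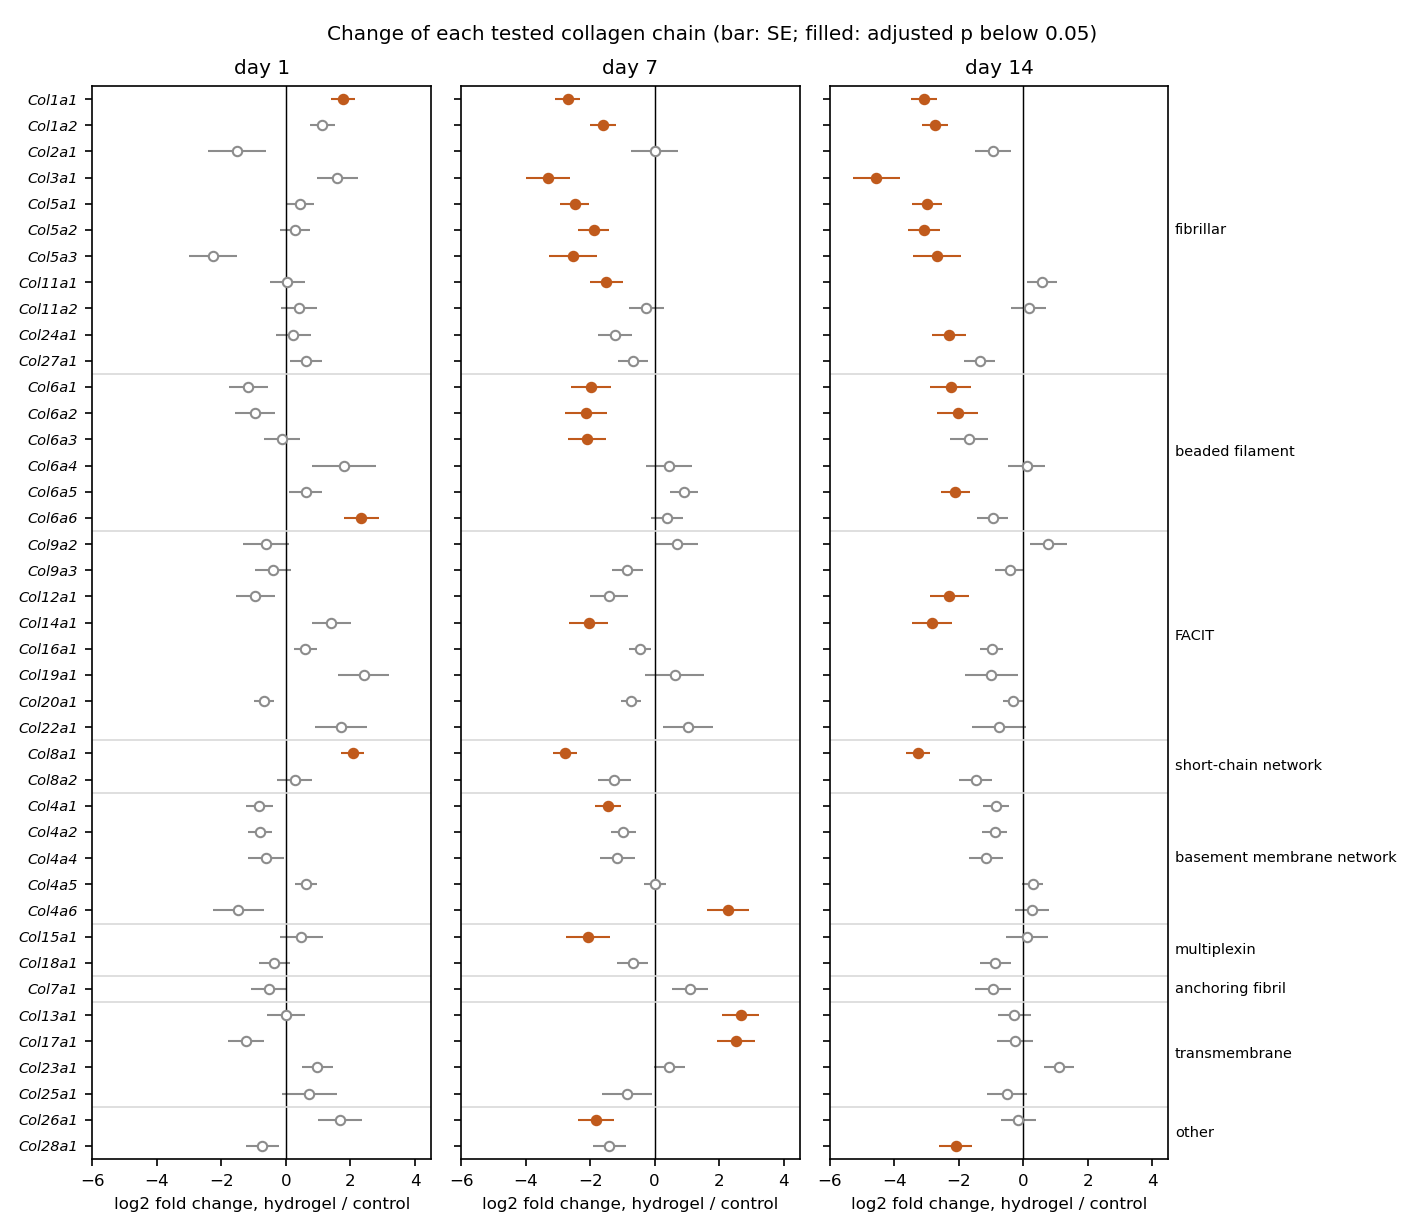
Log2 fold change of hydrogel over control wounds (points) with its standard error (bars) for the 41 tested chains, grouped by structural class, at days 1, 7 and 14; filled points passed an adjusted p of 0.05. Day 1 has 3 filled points, day 7 has 18 and day 14 has 14, and those of day 14 all lie left of 0.

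Fibrillar chains, the largest class, had the most calls. At day 7, 7 of 11 were lower in hydrogel wounds, beside 11.7% of all genes, with a class median log2 fold change of −1.60. At day 14 it was again 7 of 11, beside 10.3% of all genes, with a median of −2.68. Col1a1 codes for the alpha 1 chain of type I collagen, the main fibril protein of dermis and scar (chromosome 11, 94936224 to 94953042, plus strand, GRCm38). It had 208, 209 and 267 CPM in hydrogel wounds at day 1, against 99.2, 43.9 and 57.3 CPM in control wounds. It was the fibrillar chain called at day 1, higher in hydrogel wounds with a log2 fold change of 1.77 ± 0.38 (± SE throughout; adjusted p = 0.0146), and the groups were apart. At day 7 it had 348, 333 and 397 CPM in hydrogel wounds against 2369, 2297 and 2300.04 CPM in control wounds, and at day 14 it had 1085, 883 and 731 CPM against 12119, 6546 and 4003 CPM. Every hydrogel library lay below every control library at both later days. Its log2 fold change was −2.69 ± 0.39 at day 7 (adjusted p = 0.00128) and −3.07 ± 0.40 at day 14 (adjusted p = 0.000842). The day 1 call of Col1a1 ended without control day 1 replicate 2 or hydrogel day 1 replicate 3, with log2 fold changes of 1.55 to 1.65 and adjusted p = 0.0507 to 0.0533.

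Col1a2, the alpha 2 chain of type I collagen, lies on chromosome 6 (4504814 to 4539705, plus strand). At day 7 it had 271, 224 and 312 CPM in hydrogel wounds, against 813, 802 and 824 CPM in control wounds. At day 14 it had 537, 432 and 391 CPM in hydrogel wounds against 4093, 3814 and 1182 CPM in control wounds. The groups were apart at both days, and the gene fell by 1.60 ± 0.39 (adjusted p = 0.0117) and by 2.74 ± 0.41 on the log2 scale (adjusted p = 0.00142). At day 1 its values were 161, 181 and 252 CPM in hydrogel wounds and 129, 60.3 and 82.6 CPM in control wounds. These did not overlap either, and the log2 fold change of 1.13 ± 0.39 had an adjusted p of 0.0845. It passed without control day 1 replicate 1 (1.47, adjusted p = 0.0385) or control day 14 replicate 3 (1.13, adjusted p = 0.0279), and the day 7 call ended without hydrogel day 7 replicate 2 (−1.48, adjusted p = 0.0554).

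Col3a1, which codes for the single chain of type III collagen, lies on chromosome 1 (45311538 to 45349706, plus strand), and 1.45% of its exon bases are shared with a predicted gene, where pairs could not be assigned. It had 557, 509.97 and 581 CPM in hydrogel wounds at day 7, against 5429, 5464 and 5372 CPM in control wounds. By day 14 it had 587, 524 and 479.7 CPM in hydrogel wounds against 26258, 6711 and 4681 CPM in control wounds. The hydrogel libraries were thus near 500 to 600 CPM at both days, and all control libraries were above them. The log2 fold change was −3.30 ± 0.69 at day 7 (adjusted p = 0.00521) and −4.56 ± 0.73 at day 14 (adjusted p = 0.00187). Without control day 14 replicate 1 the day 14 value of Col3a1 was −3.43 and still passed. At day 1 its values were 791, 496 and 793 CPM in hydrogel wounds and 497, 88.4 and 102 CPM in control wounds, where control replicate 1 overlapped the hydrogel range, and the difference of 1.60 ± 0.64 did not pass (adjusted p = 0.133). Without that library it was 2.86 with an adjusted p of 0.0090.

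The promoters of Col1a2 and Col3a1, chains that moved the same way at days 7 and 14, are shown from 250 bases before to 50 after the RefSeq start on GRCm38.p6, read 5′ to 3′ on the gene's strand (chr6:4505368-4505667 and chr1:45311288-45311587, both plus strand). Capitals mark the letters CCAAT or ATTGG (the CCAAT box on either strand), GGGCGG or CCGCCC (the GC box) and TATAAA or TTTATA (the TATA box). Col1a1 is named only.
Col1a2: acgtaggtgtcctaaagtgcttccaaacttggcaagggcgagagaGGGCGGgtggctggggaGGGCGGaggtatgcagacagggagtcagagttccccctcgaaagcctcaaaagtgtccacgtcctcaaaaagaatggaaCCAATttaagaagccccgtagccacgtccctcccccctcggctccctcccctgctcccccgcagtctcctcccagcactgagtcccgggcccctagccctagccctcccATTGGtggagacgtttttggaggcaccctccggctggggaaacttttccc
Col3a1: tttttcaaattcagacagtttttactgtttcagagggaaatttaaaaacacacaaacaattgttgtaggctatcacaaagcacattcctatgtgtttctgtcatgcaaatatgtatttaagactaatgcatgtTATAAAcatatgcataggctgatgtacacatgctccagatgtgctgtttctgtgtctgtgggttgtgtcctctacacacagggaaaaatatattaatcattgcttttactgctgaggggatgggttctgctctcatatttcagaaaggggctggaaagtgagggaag
Col1a2 held matches to the CCAAT and GC boxes and Col3a1 a match to the TATA box. Windows were found for 35 of the 44 genes, 38 windows in all because 3 genes had more than 1. The CCAAT box was in 13 of the 38 (34.2%) beside 37.4% of all 32817 promoter windows of the same length, the GC box in 23 (60.5%) beside 35.6%, and the TATA box in 5 (13.2%) beside 13.6%. Within the member windows 2 matches overlapped another. A match is a description of these letters and not a binding site.

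Type V chains co-assemble with type I and help to set fibril diameter, and all 3 were lower in hydrogel wounds at days 7 and 14. Col5a1 had 54.2, 50.9 and 59.2 CPM in hydrogel wounds at day 7 against 299.7, 305 and 315 CPM in control wounds. Its day 14 values were 123, 91.9 and 66.6 CPM in hydrogel wounds against 1067, 729 and 435 CPM in control wounds. The groups were apart at both days, with log2 fold changes of −2.48 ± 0.46 (adjusted p = 0.00315) and −2.99 ± 0.47 (adjusted p = 0.00184). At day 1 Col5a1 had 43.1, 22.6 and 54.4 CPM in hydrogel wounds and 53.5, 19.1 and 15.8 CPM in control wounds, which overlapped (0.44 ± 0.44, adjusted p = 0.555). Col5a2 fell by 1.89 ± 0.47 at day 7 (adjusted p = 0.0125) and by 3.09 ± 0.50 at day 14 (adjusted p = 0.00191), and its day 7 call ended without hydrogel day 7 replicate 2 (−1.79, adjusted p = 0.0554). Col5a3 fell by 2.54 ± 0.75 at day 7 (adjusted p = 0.0260) and by 2.68 ± 0.75 at day 14 (adjusted p = 0.0253). The day 7 call of Col5a3 ended without any 1 of the 6 day 7 libraries (adjusted p = 0.0576 to 0.0877). Its day 14 call ended without any 1 of the hydrogel day 14 libraries or control day 14 replicate 1 (adjusted p = 0.0754 to 0.0941). At day 1 Col5a3 had 73.1, 37.6 and 64.3 CPM in hydrogel wounds and 722, 81.4 and 34.2 CPM in control wounds, where the highest value was control replicate 1, and it did not pass (−2.26 ± 0.74, adjusted p = 0.0706).

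Col11a1, a minor fibrillar chain of cartilage that is also made by fibroblasts in wounds, was called at day 7 alone. It had 1.87, 1.57 and 2.14 CPM in hydrogel wounds at day 7 and 6.32, 3.66 and 5.87 CPM in control wounds, which differed by −1.51 ± 0.51 on the log2 scale (adjusted p = 0.0471). At day 14 it had 20.4, 16.0 and 17.7 CPM in hydrogel wounds and 12.9, 11.1 and 12.2 CPM in control wounds. The hydrogel libraries lay below the control libraries at day 7 and above them at day 14, where the difference of 0.58 ± 0.48 did not pass (adjusted p = 0.425). At day 1 it had 1.80, 0.631 and 0.880 CPM in hydrogel wounds and 0.408, 0.379 and 2.28 CPM in control wounds (0.05 ± 0.56, adjusted p = 0.967). The day 7 call of Col11a1 ended in 12 of the 18 omissions of 1 library, among them each of the 6 day 7 libraries, with adjusted p = 0.0517 to 0.141. Col24a1, a fibrillar chain of low level, was lower at day 14, with 1.34, 1.06 and 0.863 CPM in hydrogel wounds and 2.2, 9.55 and 4.26 CPM in control wounds (−2.29 ± 0.53, adjusted p = 0.0103). Its value was −1.57 without control day 14 replicate 2 and still passed, and the call ended without hydrogel day 14 replicate 2 or 3 (−2.27 to −2.15, adjusted p = 0.0518 to 0.0650).

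**Figure D3:**
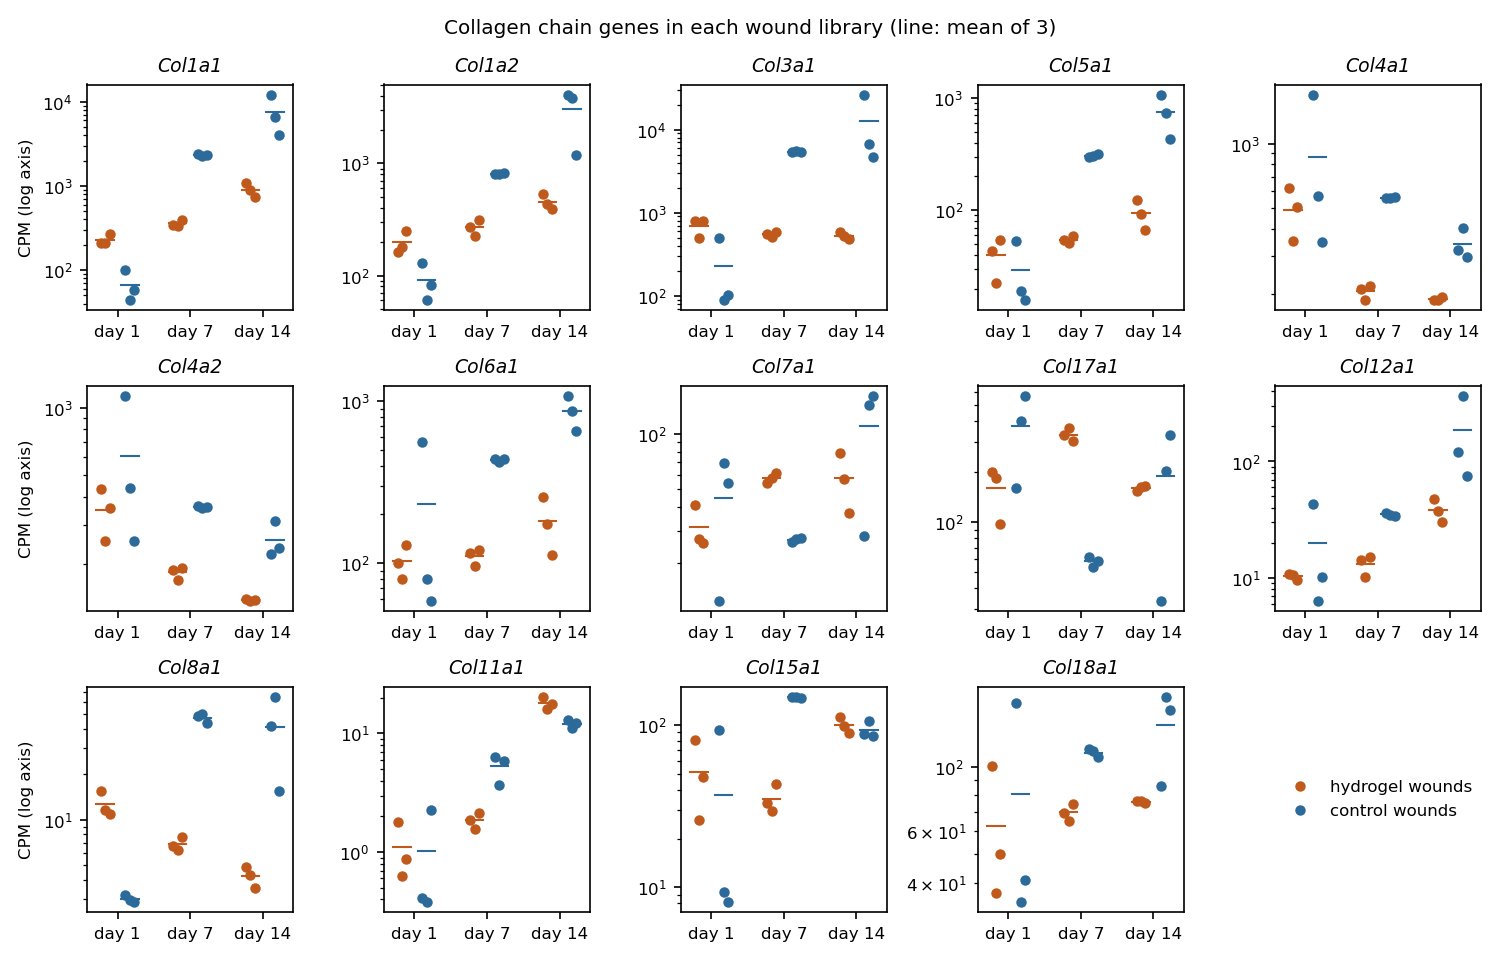
CPM (log axis) of 14 collagen chains in each wound library at days 1, 7 and 14, hydrogel points left of control points, with a line at the mean of 3 libraries. Col1a1 at day 7 lies at 333 to 397 CPM in hydrogel wounds and 2297 to 2369 CPM in control wounds, and Col17a1 at 304 to 365 CPM and 53.9 to 61.6 CPM.

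Of the 6 basement membrane chains, all tested but Col4a3, 1 was lower (Col4a1) and 1 higher (Col4a6) at day 7. Among all genes 11.7% were lower and 9.86% higher at that day, and a count of 1 in each direction does not set the class apart from them. Col4a1 and Col4a2 code for the common type IV heterotrimer beneath epithelia and around vessels, fat cells and muscle fibres. The genes lie head to head on chromosome 8 (Col4a1 at 11198431 to 11312826, minus strand, and Col4a2 at 11312805 to 11449287, plus strand). They share 0.296% of the exon bases of Col4a1 and up to 1.04% of those of Col4a2, where pairs could not be assigned. Their RefSeq start sites lie 21 bases apart, so the windows printed next (chr8:11312777-11313076, minus strand, and chr8:11312555-11312854, plus strand, GRCm38.p6, capitals as above) overlap by 78 bases.
Col4a1: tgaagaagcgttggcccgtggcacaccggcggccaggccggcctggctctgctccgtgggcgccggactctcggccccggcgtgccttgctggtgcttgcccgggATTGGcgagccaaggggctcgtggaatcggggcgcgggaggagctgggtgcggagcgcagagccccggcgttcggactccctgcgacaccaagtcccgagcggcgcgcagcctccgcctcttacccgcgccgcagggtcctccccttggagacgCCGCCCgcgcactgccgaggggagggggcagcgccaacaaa
Col4a2: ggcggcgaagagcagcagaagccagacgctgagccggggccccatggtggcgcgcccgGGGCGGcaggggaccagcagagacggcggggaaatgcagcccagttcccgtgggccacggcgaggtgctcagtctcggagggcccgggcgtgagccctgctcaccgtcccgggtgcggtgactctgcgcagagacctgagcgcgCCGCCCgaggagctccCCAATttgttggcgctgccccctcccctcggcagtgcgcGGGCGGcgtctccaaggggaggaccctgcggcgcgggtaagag
Both windows held a match to the CCAAT box and to the GC box and neither held the letters of the TATA box.

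Col4a1 had 211, 187 and 216 CPM in hydrogel wounds at day 7 against 556, 556 and 566 CPM in control wounds, and Col4a2 had 189, 170.1 and 192 CPM against 365, 356 and 361 CPM. Both genes were lower in every hydrogel library. Col4a1 passed with −1.45 ± 0.41 (adjusted p = 0.0229) and Col4a2 did not with −0.97 ± 0.38 (adjusted p = 0.0804). The call of Col4a1 ended without any 1 of the 6 day 7 libraries (−1.49 to −1.39, adjusted p = 0.0576 to 0.0800), and Col4a2 passed without control day 1 replicate 1 (adjusted p = 0.00514) or control day 1 replicate 3 (adjusted p = 0.0295), with a log2 fold change of −0.97 in both. At day 14 Col4a1 had 187, 187 and 194 CPM in hydrogel wounds and 319.8, 403 and 298 CPM in control wounds, and Col4a2 had 139, 136 and 139 CPM and 221, 312 and 235 CPM. The groups were again apart, and the differences of −0.85 ± 0.41 (adjusted p = 0.165) and −0.89 ± 0.38 (adjusted p = 0.123) did not pass. Without control day 1 replicate 1 both passed at day 14, with adjusted p = 0.0151 for Col4a1 and 0.0124 for Col4a2 and log2 fold changes of −0.85 and −0.89.

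At day 1 Col4a1 had 624, 351 and 505 CPM in hydrogel wounds and 1689, 573 and 349.8 CPM in control wounds, and Col4a2 had 434, 254 and 356 CPM and 1131, 438 and 253 CPM. The groups overlapped, and the differences of −0.82 ± 0.41 (adjusted p = 0.218) and −0.80 ± 0.38 (adjusted p = 0.198) did not pass. The highest value of both genes was control replicate 1, and without it the log2 fold changes were 0.10 and 0.01. Without control day 1 replicate 3 they were −1.20 (adjusted p = 0.0499) and −1.17 (adjusted p = 0.0399), which passed. Another head-to-head pair lies on chromosome X. Col4a6, a chain of the epidermal and smooth muscle basement membrane, had 1.08, 0.672 and 0.401 CPM in hydrogel wounds at day 7 and 0.223, 0.135 and 0.0698 CPM in control wounds (2.28 ± 0.66, adjusted p = 0.0241). Col4a5, its partner chain, which starts 1308 bases away on the opposite strand, had 7.32, 8.46 and 5.61 CPM in hydrogel wounds and 7.29, 8.13 and 5.87 CPM in control wounds (0.01 ± 0.33, adjusted p = 0.990). The Col4a6 groups were apart at a low level and the Col4a5 groups overlapped. The call of Col4a6 ended without control day 7 replicate 2 or 3 or hydrogel day 7 replicate 1 or 2 (1.89 to 2.32, adjusted p = 0.0585 to 0.103).

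Type VI chains form beaded microfilaments around cells, fat lobules and muscle fibres. Col6a1 had 115, 95.4 and 121 CPM in hydrogel wounds at day 7 against 438, 421 and 439.7 CPM in control wounds, and at day 14 it had 258, 175 and 112 CPM against 1079, 863 and 655 CPM. The groups were apart at both days, with log2 fold changes of −1.97 ± 0.62 (adjusted p = 0.0346) and −2.25 ± 0.62 (adjusted p = 0.0245). At day 1 Col6a1 had 100.1, 79.6 and 129 CPM in hydrogel wounds and 557, 80.4 and 58.3 CPM in control wounds. The difference of −1.17 ± 0.61 did not pass (adjusted p = 0.237), and without control replicate 1, its highest library, it was 0.57. Its partners were also lower at day 7, Col6a2 with −2.12 ± 0.65 on the log2 scale (adjusted p = 0.0304) and Col6a3 with −2.09 ± 0.59 (adjusted p = 0.0225), and Col6a2 at day 14 with −2.04 ± 0.64 (adjusted p = 0.0424). The day 7 calls of all 3 ended without any 1 of the 6 day 7 libraries, with adjusted p = 0.0751 to 0.11 for Col6a1, 0.0681 to 0.1 for Col6a2 and 0.0528 to 0.0834 for Col6a3. The day 14 call of Col6a1 ended without control day 14 replicate 1 or hydrogel day 14 replicate 2 or 3 (adjusted p = 0.0794 to 0.118), and that of Col6a2 in 12 of 18 omissions (adjusted p = 0.0504 to 0.173).

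The remaining beaded filament chains were of low level. Col6a5, an alternative to Col6a3, had 7.03, 7.95 and 7.62 CPM in hydrogel wounds at day 7 and 4.46, 4.0 and 3.49 CPM in control wounds, against 2.25, 1.40 and 1.28 CPM and 6.50, 7.49 and 7.24 CPM at day 14. The hydrogel libraries were all higher at day 7, where the difference of 0.92 ± 0.43 did not pass (adjusted p = 0.136), and all lower at day 14, where it passed (−2.11 ± 0.45, adjusted p = 0.00678). The day 14 call of Col6a5 ended without hydrogel day 14 replicate 3 (−1.95, adjusted p = 0.0512). Col6a6, another such chain, was higher at day 1, with 0.773, 2.00 and 3.88 CPM in hydrogel wounds and 0.272, 0.682 and 0.380 CPM in control wounds (2.34 ± 0.55, adjusted p = 0.0219). The libraries did not overlap, and without hydrogel day 1 replicate 3 the value of Col6a6 was 1.67 and its call ended (adjusted p = 0.102).

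Col17a1 and Col7a1, collagens of epithelial attachment, were higher in every hydrogel library at day 7, and Col17a1 passed. Col17a1 codes for the transmembrane collagen of hemidesmosomes in basal keratinocytes (chromosome 19, 47646344 to 47692094, minus strand). Its promoter is shown as that of a chain called in the opposite direction to Col1a2 and Col3a1 (chr19:47691993-47692292, minus strand, GRCm38.p6, capitals as above).
Col17a1: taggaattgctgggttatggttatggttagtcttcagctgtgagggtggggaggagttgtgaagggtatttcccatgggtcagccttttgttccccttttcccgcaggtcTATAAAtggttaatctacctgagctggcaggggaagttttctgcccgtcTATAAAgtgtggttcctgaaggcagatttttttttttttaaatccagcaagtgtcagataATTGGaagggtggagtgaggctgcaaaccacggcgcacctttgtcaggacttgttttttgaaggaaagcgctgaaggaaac
The window held the letters of the TATA box in 2 places and of the CCAAT box on the reverse strand. Col17a1 had 332, 365 and 304 CPM in hydrogel wounds at day 7, against 61.6, 53.9 and 58.5 CPM in control wounds. Every hydrogel library was higher, by 2.52 ± 0.59 in log2 units (adjusted p = 0.0091). At day 1 it had 199.9, 184 and 96.8 CPM in hydrogel wounds and 161, 402 and 570.4 CPM in control wounds, and at day 14 it had 153, 162 and 164 CPM and 33.5, 201 and 333 CPM. The groups overlapped at both days, with differences of −1.24 ± 0.57 (adjusted p = 0.183) and −0.25 ± 0.56 (adjusted p = 0.795). Without control day 14 replicate 1, the lowest library of its group, the day 1 difference of Col17a1 was −1.24 with an adjusted p of 0.0401. The day 14 difference was 0.44 without control day 14 replicate 3.

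Col13a1, a transmembrane collagen of cell adhesions, was also higher at day 7, with 4.88, 3.75 and 6.81 CPM in hydrogel wounds and 0.892, 0.881 and 0.628 CPM in control wounds (2.67 ± 0.58, adjusted p = 0.00611). Col7a1, the anchoring fibril chain made by keratinocytes and fibroblasts, had 54.1, 57.7 and 61.2 CPM in hydrogel wounds at day 7 and 26.2, 27 and 27.3 CPM in control wounds. All hydrogel libraries were higher, and the difference of 1.10 ± 0.56 did not pass (adjusted p = 0.165). At day 1 Col7a1 had 41.2, 27 and 25.6 CPM in hydrogel wounds and 12.5, 69.4 and 53.9 CPM in control wounds (−0.53 ± 0.56, adjusted p = 0.577). Its day 14 values were 78.6, 57.2 and 37.2 CPM and 28.2, 142 and 160.00 CPM (−0.93 ± 0.56, adjusted p = 0.261). Replicate 1 was the lowest control library of Col7a1 at both days, and the groups overlapped.

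Col8a1, a short-chain network collagen of vessel walls and of activated mesenchymal cells, was called at all 3 days and had the smallest adjusted p of any chain in each of the 3 comparisons. It had 15.4, 11.6 and 10.9 CPM in hydrogel wounds at day 1, against 3.19, 2.96 and 2.85 CPM in control wounds. At day 7 it had 6.75, 6.33 and 7.68 CPM in hydrogel wounds against 48.3, 50.1 and 43.7 CPM in control wounds, and at day 14 it had 4.89, 4.30 and 3.56 CPM against 41.8, 65.0 and 15.6 CPM. No day showed overlap, with the hydrogel libraries higher at day 1 and lower afterwards. The log2 fold change was 2.07 ± 0.37 at day 1 (adjusted p = 0.00657), −2.77 ± 0.37 at day 7 (adjusted p = 0.000861) and −3.26 ± 0.37 at day 14 (adjusted p = 0.000552). None of the 18 omissions of 1 library ended a call of Col8a1. With only the compared groups fitted its day 1 call was lost (2.01, adjusted p = 0.300), and with the day 7 libraries summed those of day 1 (2.07, adjusted p = 0.0853) and day 7 (−2.79, adjusted p = 0.701) were lost.

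FACIT chains sit on the surface of fibrils, and 1 of 8 tested was lower at day 7 (12.5%, near the 11.7% of all genes) and 2 of 8 at day 14 (25%, beside 10.3%). Col12a1, which links fibrils in tissue under load, had 14.3, 10.2 and 15.1 CPM in hydrogel wounds at day 7 and 36.1, 34.9 and 34.2 CPM in control wounds. The libraries of the groups did not overlap, and the difference of −1.41 ± 0.60 did not pass (adjusted p = 0.101), though it did without control day 1 replicate 1 (adjusted p = 0.0215, with the same log2 fold change of −1.41). At day 14 Col12a1 had 47.4, 37.8 and 30.1 CPM in hydrogel wounds against 121, 368 and 75.1 CPM in control wounds (−2.29 ± 0.61, adjusted p = 0.0202). That value was −1.35 without control day 14 replicate 2, its highest library, and the call ended without that library or hydrogel day 14 replicate 2 or 3 (adjusted p = 0.0787 to 0.107). At day 1 Col12a1 had 10.7, 10.6 and 9.57 CPM in hydrogel wounds and 43.3, 6.29 and 10.1 CPM in control wounds (−0.95 ± 0.60, adjusted p = 0.331). Col14a1, a fibril-surface collagen of dermis, was lower at day 7, at −2.05 ± 0.61 on the log2 scale (adjusted p = 0.0276), a call that ended without any 1 of the 6 day 7 libraries (adjusted p = 0.0611 to 0.0918). At day 14 it had 43.8, 39.9 and 36.6 CPM in hydrogel wounds and 689, 103 and 67.5 CPM in control wounds (−2.84 ± 0.63, adjusted p = 0.00831). Without control day 14 replicate 1 the day 14 value of Col14a1 was −1.09 and passed, and the call ended without hydrogel day 14 replicate 3 (−2.77, adjusted p = 0.0520).

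The multiplexins lie at basement membrane zones. Col15a1 had 32.9, 29.3 and 43.2 CPM in hydrogel wounds at day 7 against 149, 149 and 146 CPM in control wounds (−2.07 ± 0.68, adjusted p = 0.0413), and 112, 98.4 and 89.6 CPM against 88.3, 106 and 85.7 CPM at day 14 (0.10 ± 0.65, adjusted p = 0.933). The groups were apart at day 7 and overlapped at day 14. Its day 7 call ended in 11 of 18 omissions (adjusted p = 0.0503 to 0.125). At day 1 Col15a1 had 81.4, 26.0 and 47.7 CPM in hydrogel wounds and 93.4, 9.40 and 8.11 CPM in control wounds. Control replicate 1 overlapped the hydrogel libraries there (0.48 ± 0.66, adjusted p = 0.680), and without it the difference was 2.56 with an adjusted p of 0.00206. Col18a1, whose end fragment is endostatin, had 69.1, 65.2 and 74.4 CPM in hydrogel wounds at day 7 and 115, 113 and 108 CPM in control wounds (−0.68 ± 0.48, adjusted p = 0.320). On day 14 it had 76.1, 75.9 and 74.8 CPM and 85.6, 173 and 156 CPM (−0.87 ± 0.49, adjusted p = 0.227), which passed without control day 1 replicate 1 (−0.87, adjusted p = 0.0491). At day 1 it had 100.01, 36.8 and 50.3 CPM in hydrogel wounds and 166, 34.3 and 40.7 CPM in control wounds (−0.36 ± 0.48, adjusted p = 0.668).

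The other collagens were low. Col26a1 was lower at day 7, with 0.933, 0.336 and 1.20 CPM in hydrogel wounds and 2.31, 2.78 and 3.56 CPM in control wounds (−1.81 ± 0.57, adjusted p = 0.0341), a call that ended without any 1 of the 6 day 7 libraries (adjusted p = 0.0513 to 0.132). Col28a1, a collagen of peripheral nerve sheaths, was lower at day 14, with 3.75, 3.18 and 2.83 CPM in hydrogel wounds and 26.3, 6.89 and 8.89 CPM in control wounds (−2.10 ± 0.53, adjusted p = 0.0154). Control replicate 1 was the highest, and without it the log2 fold change of Col28a1 was −1.28 and the call ended, as it did without hydrogel day 14 replicate 2 or 3 (adjusted p = 0.0654 to 0.105).

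The course over time was tested within each arm on neighbouring days. In control wounds 20 of 41 chains rose and 1 fell between day 1 and day 7, where 15% of all genes rose and 16.6% fell (51.2% of chains called against 31.6% of all genes). Col1a1 rose by 5.12 ± 0.44 on the log2 scale (adjusted p = 8.35e-06), Col3a1 by 4.56 ± 0.73 (adjusted p = 0.000641), Col14a1 by 4.21 ± 0.67 (adjusted p = 0.000652) and Col8a1 by 3.98 ± 0.39 (adjusted p = 2.72e-05). Col17a1 was the chain that fell, by 2.70 ± 0.60 (adjusted p = 0.00450). The rise of Col3a1 was 5.83 without control day 1 replicate 1, that of Col15a1 was 4.08 against 2.00 ± 0.68 with it, and that of Col6a3 was 3.55 against 2.03 ± 0.59. Between day 7 and day 14, 6 chains rose (6.33% of all genes rose and 5.87% fell, 12.2% in all beside 14.6% of chains): Col1a2 by 1.9 ± 0.40, Col1a1 by 1.70 ± 0.38, Col12a1 by 2.42 ± 0.61, Col16a1 by 1.34 ± 0.36, Col7a1 by 2.04 ± 0.57 and Col13a1 by 1.84 ± 0.57, with adjusted p = 0.0084 to 0.0454. Of these, Col1a2 stayed past in each of the 18 omissions, and the value of Col12a1 was 1.48 without control day 14 replicate 2. The edgeR count of 0 falling chains stood beside 1 unadjusted, 0 by DESeq2 and 4 by limma-voom.

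In hydrogel wounds 4 chains rose and 1 fell between day 1 and day 7, beside 7.76% and 10.5% of all genes (12.2% of chains called against 18.3%). Col6a5 rose by 3.16 ± 0.48 (adjusted p = 0.0017), Col4a6 by 3.09 ± 0.70 (adjusted p = 0.0099), Col13a1 by 2.48 ± 0.56 (adjusted p = 0.0103) and Col4a5 by 1.34 ± 0.34 (adjusted p = 0.0169). Col4a1 fell by 1.27 ± 0.41 (adjusted p = 0.0436), a call that ended in 13 of 18 omissions (adjusted p = 0.0505 to 0.135). With size factors of relative log expression or with no scaling the split was 4 rising and 0 falling. Between day 7 and day 14, 3 chains rose and 3 fell, beside 11.7% and 9.6% of all genes (14.6% of chains called against 21.3%). Col11a1 rose by 3.28 ± 0.53 (adjusted p = 0.0015), Col1a1 by 1.32 ± 0.38 (adjusted p = 0.0225) and Col23a1, a transmembrane collagen, by 1.44 ± 0.48 (adjusted p = 0.0430). Col6a5 fell by 2.2 ± 0.45 (adjusted p = 0.0050), Col22a1, a FACIT chain of tissue junctions, by 2.98 ± 0.83 (adjusted p = 0.0216), and Col28a1 by 1.68 ± 0.52 (adjusted p = 0.0334). Only Col11a1 and Col6a5 kept their calls in all 18 omissions, and with no scaling the split was 7 rising and 2 falling.

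Whether the hydrogel difference itself changed over the days was tested by interaction in the same fit, and 13 of 41 chains passed, 31.7% beside 15.8% of all genes. The log2 difference of Col8a1 was lower at day 7 than at day 1 by 4.84 ± 0.52, that of Col1a1 by 4.46 ± 0.55 and that of Col3a1 by 4.90 ± 0.93. That of Col17a1 was higher at day 7 than at day 1 by 3.76 ± 0.82, that of Col13a1 by 2.67 ± 0.81 and that of Col4a6 by 3.75 ± 1.03. Taken alone, the step between day 7 and day 14 did not pass for these 6 chains. It was −2.77 for Col17a1 (adjusted p = 0.0856), −2.95 for Col13a1 (adjusted p = 0.0645) and −2.0 for Col4a6 (adjusted p = 0.218). For Col1a1 it was −0.38 (adjusted p = 0.755), for Col8a1 −0.49 (adjusted p = 0.644) and for Col3a1 −1.26 (adjusted p = 0.479).

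Chains of one trimer or fibril were also compared as ratios per kilobase, 5 ratios at 3 days. Of these 15 comparisons, 9 did not overlap between groups, and 3 against 3 libraries cannot reach an exact two-sided permutation p below 0.1 (adjusted over the 15, 0.167). Every ratio was apart at day 7. Among all genes at that day, 35.3% were apart in the higher and 34.9% in the lower direction, so being apart was common. Such a share was not computed for ratios of other genes. Type I collagen holds more alpha 1 than alpha 2 chains. The Col1a1 to Col1a2 ratio was 2.2 to 2.57 in hydrogel wounds at day 7 and 4.83 to 5.05 in control wounds, and at day 1 it was 1.83 to 2.24 and 1.20 to 1.33. The order of the groups thus differed between these days, and at day 14 they overlapped at 3.24 to 3.54 and 2.97 to 5.86. The Col3a1 to Col1a1 ratio was 0.939 to 1.03 in hydrogel wounds and 1.47 to 1.53 in control wounds at day 7, and 0.348 to 0.421 and 0.659 to 1.39 at day 14. The Col4a1 to Col4a2 ratio kept between 1.06 and 1.26 in every library of days 1 and 14, while at day 7 it was 0.927 to 0.946 in hydrogel wounds and 1.28 to 1.32 in control wounds. Col6a1 to Col6a2 did not overlap at any day, with 1.56 to 1.71 in hydrogel wounds and 1.81 to 2.01 in control wounds at day 1, 2.01 to 2.11 and 1.82 to 1.87 at day 7, and 1.74 to 1.83 and 1.91 to 2.18 at day 14. Col5a1 to Col5a2 at day 7 was 1.23 to 1.40 in hydrogel wounds and 1.84 to 2.07 in control wounds.

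**Figure D4:**
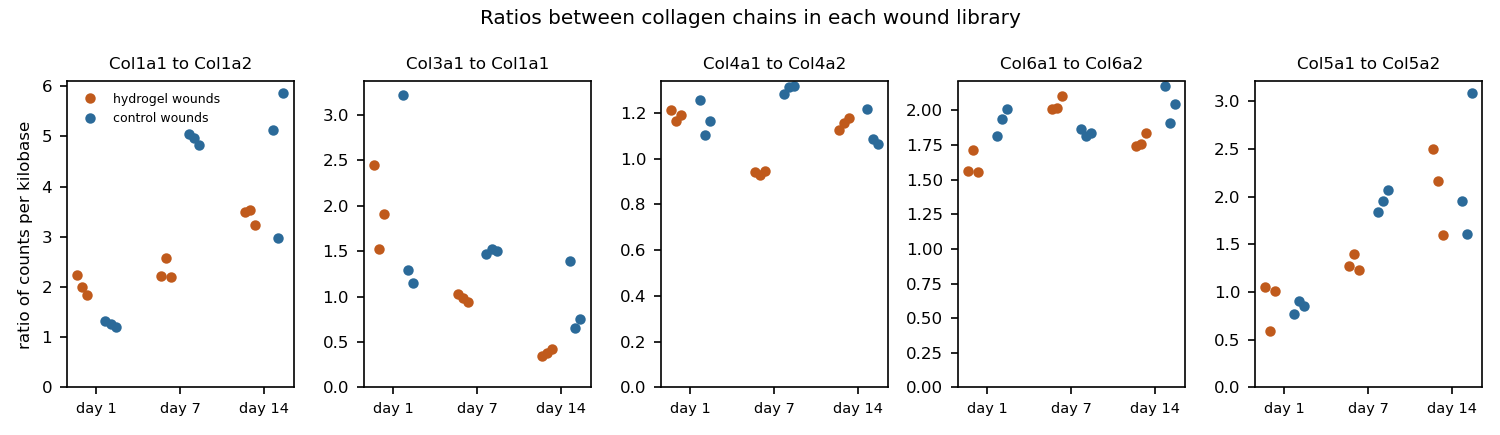
Ratios of 5 chain pairs in CPM per kb, 1 point per wound library, hydrogel left of control at days 1, 7 and 14. At day 7 the Col1a1 to Col1a2 points lie at 2.2 to 2.57 in hydrogel wounds and 4.83 to 5.05 in control wounds.

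Enzymes and chaperones of collagen synthesis and processing, a list of 31 genes of which 30 were tested, were counted in the same fit. At day 1, 2 were higher, at day 7, 1 was higher and 15 lower, and at day 14, 19 were lower, with list medians of 0.35, −0.99 and −1.26 on the log2 scale. Of the list 6.67% was called at day 1, 53.3% at day 7 and 63.3% at day 14, beside 7.55%, 21.6% and 16.1% of all genes, so that the day 1 share lay near that of all genes. P4ha1, a prolyl 4-hydroxylase subunit, was higher at day 1 by 0.83 ± 0.18 (adjusted p = 0.0146), with 58.3 to 69.3 CPM in hydrogel wounds and 30.4 to 40.3 CPM in control wounds. P4ha3, another such subunit, was lower at day 7, at −3.24 ± 0.61 (adjusted p = 0.00341), and at day 14, at −5.40 ± 0.66 (adjusted p = 0.000842). Adamts2, which removes the amino-terminal propeptide of fibrillar procollagens, had log2 fold changes of −1.53 ± 0.37 (adjusted p = 0.0108) and −2.79 ± 0.39 (adjusted p = 0.00108) at the same days. Pcolce, an enhancer of carboxy-terminal cleavage, was at −2.47 ± 0.51 at day 7 (adjusted p = 0.00527) and Bmp1, the enzyme of that cleavage, at −1.53 ± 0.21 at day 14 (adjusted p = 0.000955). P3h3, of the prolyl 3-hydroxylase family, was higher at day 1 (0.93 ± 0.24, adjusted p = 0.0330) and lower at days 7 and 14 (−1.65 ± 0.25, adjusted p = 0.0013, and −1.73 ± 0.24, adjusted p = 0.00114). Adamts3, a propeptidase, was the gene higher at day 7, from 19 counts over the hydrogel libraries and 1 over the control libraries, a ratio of 16.1 with an exact 95% interval of 2.56 to 669.9 that covers counting error only.

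Of 10 collagen receptor genes 9 were tested. At day 7, 4 were lower and 1 higher, beside 11.7% and 9.86% of all genes, and at day 14, 6 were lower, beside 10.3%. At day 1 the edgeR count was 0, with 3 at an unadjusted p below 0.05. Mrc2, the uptake receptor for cleaved collagen, fell at both days (−2.08 ± 0.36, adjusted p = 0.00258, and −2.27 ± 0.36, adjusted p = 0.00188), as did Itga11, the alpha subunit of a fibroblast collagen integrin (−2.04 ± 0.44, adjusted p = 0.00647, and −2.68 ± 0.45, adjusted p = 0.00245). Ddr1, the discoidin domain receptor of epithelia, was the gene that rose at day 7 (1.77 ± 0.51, adjusted p = 0.0252), while Ddr2, that of mesenchymal cells, fell at day 14 (−2.32 ± 0.61, adjusted p = 0.0189).

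Cell type markers also differed between the groups. Their counts of calls stand beside 9.86% of all genes higher and 11.7% lower at day 7, and 10.3% lower at day 14. A count of 1 or 2 in so short a list does not set it apart from all genes. The 8 fibroblast markers summed to 572 to 607 CPM in hydrogel wounds and 2340 to 2384 CPM in control wounds at day 7, with 7 of 8 lower, and to 669 to 696 CPM and 1274 to 6726 CPM at day 14, again with 7 of 8 lower. At day 1 they summed to 700.2 to 754.7 CPM and 460.6 to 918.9 CPM. The 6 basal keratinocyte markers, cells that make types XVII and VII, summed to 7197 to 7230 CPM in hydrogel wounds and 651 to 657 CPM in control wounds at day 7, with 5 of 6 higher. The 5 adipocyte markers, cells wrapped in type IV and VI collagen, summed to 589.9 to 654 CPM and 18055 to 18460 CPM at day 7 with all 5 lower, and the 6 skeletal muscle markers to 71316 to 84543 CPM and 20191 to 20499 CPM with 2 of 6 higher. The 4 endothelial markers summed to 185.6 to 190.5 CPM and 723.6 to 736 CPM at that day with 3 of 4 lower. Of the 5 myofibroblast markers 4 were tested, and they summed to 386 to 401 CPM and 1182 to 1215 CPM with 3 of 4 lower, while the 5 macrophage markers summed to 264 to 313 CPM and 2033 to 2049 CPM with all 5 lower. At day 14 the basal keratinocyte sums overlapped, at 4619 to 5428 CPM in hydrogel wounds and 505 to 5236 CPM in control wounds, and so did those of day 1, at 2344 to 3892 CPM and 1697 to 3520.02 CPM. Skeletal muscle markers, higher in hydrogel wounds at day 7, lay lower there at day 14, at 11209 to 17780 CPM against 23090 to 31060 CPM in control wounds. Adipocyte sums at day 14 were 397 to 469 CPM in hydrogel wounds and 477 to 1493 CPM in control wounds. Macrophage sums at that day were 64.7 to 95.2 CPM and 459.8 to 3655 CPM, with all 5 lower. Endothelial sums were 47.0 to 63.3 CPM and 114 to 188 CPM with 1 of 4 lower, and myofibroblast sums 367 to 436 CPM and 1325 to 2460.5 CPM with 3 of 4 lower. At day 1 the sums of these 7 lists overlapped between the groups. For fibroblast and macrophage markers the overlap came through control replicate 1 alone, at 918.9 and 774 CPM. The other control libraries had 550 and 461 CPM of fibroblast markers, below every hydrogel library. They had 340 and 369 CPM of macrophage markers, against 427 to 524 CPM in hydrogel wounds. None of the markers of these 7 lists was at 0 in all libraries of a wound group, and their part in the collagen results was not tested.

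Set against the summed fibroblast markers of its own library, Col1a1 stood at 0.573 to 0.671 in hydrogel wounds and 0.972 to 0.994 in control wounds at day 7, and Col3a1 at 0.892 to 0.980 and 2.28 to 2.31. At day 14 Col1a1 stood at 1.09 to 1.56 and 1.80 to 3.22, and Col3a1 at 0.717 to 0.843 and 3.31 to 3.90. Both were lower in every hydrogel library at both days on this scale. Col4a1 did the opposite, with 0.328 to 0.365 in hydrogel wounds and 0.233 to 0.242 in control wounds at day 7. Col17a1, which fibroblasts are not known for, stood at 0.513 to 0.638 and 0.0228 to 0.0258. At day 1 Col1a1 stood at 0.277 to 0.358 in hydrogel wounds and 0.0797 to 0.124 in control wounds, and Col3a1 at 0.657 to 1.13 and 0.161 to 0.541. Most of the fibroblast markers were themselves called lower in hydrogel wounds at days 7 and 14, so this scale does not count fibroblasts. Whether fewer cells or less RNA per cell lay behind these values was not tested.

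**Figure D5:**
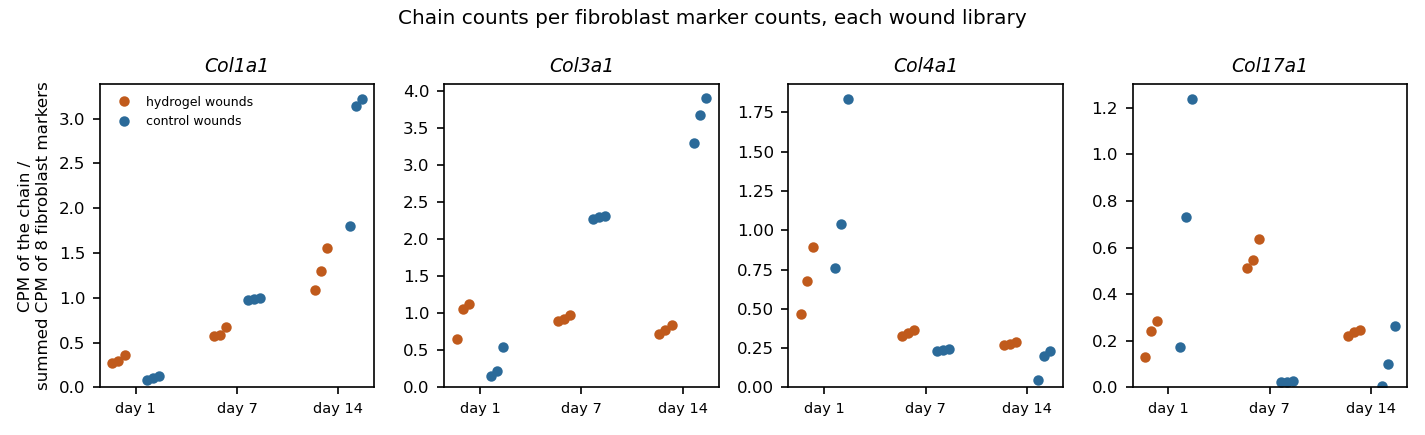
CPM of Col1a1, Col3a1, Col4a1 and Col17a1 divided by the summed CPM of 8 fibroblast markers in the same library, 1 point per wound library, hydrogel left of control at days 1, 7 and 14. At day 7 Col3a1 lies at 0.892 to 0.980 in hydrogel wounds and 2.28 to 2.31 in control wounds.

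RAW264.7 cells held little collagen RNA, 0.00381% of counts with hydrogel and 0.00450% without. Of the 44 genes, 33 had a count, 10 could be tested, 23 had a count but at most 50 in all and could not, and 11 had none. Col1a1 had 8 counts over the 6 libraries and Col1a2 had 7, while Col3a1 had 0, which allows up to 0.0226 CPM (3 counts over the 6 libraries). The chain of highest level was Col4a5, with 43.1% to 50.4% of all collagen counts of a library. It had 17, 18.3 and 18.9 CPM with hydrogel and 19.4, 21.0 and 19.3 CPM without, apart but not past the test (−0.13 ± 0.08, adjusted p = 0.143).

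Among the 10 tested chains 2 were higher and 3 lower with hydrogel, in a comparison where 34.7% of all 12972 genes tested were higher and 37.8% lower, so that the 50% of chains called lay below the 72.5% of all genes. Col20a1, a FACIT chain, had 0.504, 0.837 and 0.967 CPM with hydrogel and 3.26, 3.19 and 2.64 CPM without (−1.93 ± 0.22, adjusted p = 1.75e-05). Col9a3, a FACIT chain of cartilage, had 0.561, 0.705 and 0.462 CPM with hydrogel and 0.960, 1.5 and 1.34 CPM without (−1.12 ± 0.27, adjusted p = 0.0032), and 6.07% of its exon bases are shared with Tcfl5. Both were lower in every hydrogel library. Col27a1, a fibrillar chain of cartilage, had 0.673, 0.573 and 0.631 CPM with hydrogel and 0.251, 0.193 and 0.210 CPM without (1.48 ± 0.31, adjusted p = 0.0013), and Col18a1 had 2.35, 2.69 and 1.68 CPM and 1.17, 1.30 and 1.22 CPM (0.86 ± 0.21, adjusted p = 0.0039). Both were higher in every hydrogel library. Col5a3 had 7.62, 5.99 and 4.37 CPM with hydrogel and 7.56, 8.35 and 8.81 CPM without, which overlapped (−0.48 ± 0.17, adjusted p = 0.0257). The call of Col5a3 ended without replicate 2 or 3 of either group (−0.47 to −0.23, adjusted p = 0.0620 to 0.149).

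Col11a2 (0.07 ± 0.11, adjusted p = 0.581), Col4a2 (0.01 ± 0.19, adjusted p = 0.961), Col7a1 (−0.59 ± 0.38, adjusted p = 0.180) and Col23a1 (−0.01 ± 0.31, adjusted p = 0.981) did not pass in the cells, and all overlapped. The 5 macrophage markers summed to 4075 to 4433 CPM with hydrogel and 2112 to 2183 CPM without, and the 8 fibroblast markers to 0.210 to 0.224 CPM and 0.145 to 0.252 CPM, with Pdgfra, Dpt and Thy1 at 0 in both groups. Because the treated and untreated cells may differ in LPS, a difference between them cannot be told apart from LPS.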

How the data were processed

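Messenger RNA was sequenced from 18 wound and 6 RAW264.7 libraries of mouse, with the Hieff NGS MaxUp mRNA kit per the labels. The deposited values are counts of read pairs per gene symbol. Per the submitters' processing notes, the authors used Trim Galore 0.6.10, FastQC 0.11.9, HISAT2 2.2.1 on mm10, SAMtools 1.9 and featureCounts 2.0.6. Per the file headers, pairs were counted over exons by gene name from GENCODE M25 (GRCm38), with no option for strand or multi-mapping, so antisense reads cannot be told from sense and loci of one name were merged.

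Samples were grouped by their labels. Genes were kept with filterByExpr (minimum count 10, total 15), leaving 17592 in wounds and 12972 in cells. The edgeR 4.0.16 quasi-likelihood F test (R 4.3.3, TMM, robust) took the 18 wound libraries together, as 6 groups, with 12 residual degrees of freedom, and the 6 cell libraries apart, with 4. Benjamini-Hochberg adjusted p below 0.05 over all genes tested is a call, "rose" and "fell" included. Alternatives were DESeq2 1.42.0, limma-voom 3.58.1 with quality weights, other scalings and filters, only the compared groups, replicate blocks, each library left out, and summed day 7 libraries. Tests were tried on simulated counts that gave every library of a fit the same spread and changed only genes above a set mean count. Recovery in groups of unequal spread or for chains of lower count was not simulated, so the rates below do not cover them. For hydrogel against control wounds at day 7, 79% of 4-fold and 11% of 2-fold changes were recovered, and 5.26% of calls fell on unchanged genes. For RAW264.7, 100% of both were recovered, with 1.96% of calls on unchanged genes. A chain that did not pass in wounds may thus still differ by 2-fold. Ratios and shares were computed in Python 3.11.15 with pandas 2.3.3 and SciPy 1.17.1.

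Members and lists were chosen with earlier results of these data known. A panel of 14 chains is given in full in each hydrogel comparison, with up to 8 further called chains per comparison by adjusted p, every chain tested in RAW264.7, and up to 6 genes of each of 2 pathway lists. Other members are given by call or count. Chains named beyond that rule were named after their values were seen. Cell type markers came from 11 lists. Replicate numbers deviated together at day 1, where same-numbered hydrogel and control libraries correlated at 0.431, 0.335 and 0.126 in their deviations from the group means, over the threshold of 0.1 in each pair. For replicate 3 the highest correlation was with a library of another number. The numbers are those of the titles. A fit with that block changed no day 1 call. Intervals and floors cover counting error only. Promoter windows are from RefSeq (GRCm38.p6) and were matched by symbol. Protein sequence was not analysed here.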

Additional observations from a re-analysis of the deposited data

Results flagged for a closer look

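For 13 chains the hydrogel difference itself varied between the days, by an interaction test in the edgeR quasi-likelihood fit with Benjamini-Hochberg adjustment over all genes. Type I and III chains had adjusted p = 0.000277 for Col1a1, 0.00211 for Col1a2 and 0.00278 for Col3a1, and type V chains 0.00538 for Col5a1 and 0.0101 for Col5a2. Col8a1 had the smallest, 0.00019, and Col14a1 had 0.00996. In all 7 of these chains the fold change was positive at day 1 and negative at days 7 and 14. Col26a1 (adjusted p = 0.0365) was positive at day 1 (1.68 ± 0.68) and negative at day 7 (−1.81 ± 0.57). Col6a6 (adjusted p = 0.0192) had 2.34 ± 0.55 at day 1, 0.37 ± 0.50 at day 7 and −0.95 ± 0.48 at day 14.

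Chains with their highest fold change at day 7 were Col17a1 (adjusted p = 0.0151), Col13a1 (0.03), Col4a6 (0.0476) and Col6a5 (0.0088). Col17a1 had −1.24 ± 0.57, 2.52 ± 0.59 and −0.25 ± 0.56 at days 1, 7 and 14. Col13a1 had 0.01 ± 0.58, 2.67 ± 0.58 and −0.28 ± 0.52. Col4a6 had −1.48 ± 0.78, 2.28 ± 0.66 and 0.28 ± 0.53, from levels of at most 1.08 CPM. Col6a5 had 0.61 ± 0.51, 0.92 ± 0.43 and −2.11 ± 0.45, and its difference passed at day 14 alone.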

How the results depend on the processing

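The counts of called chains were 3, 18 and 14 for hydrogel against control at days 1, 7 and 14, 21 and 6 for control wounds over the 2 time steps, 5 and 6 for hydrogel wounds, 13 for the interaction and 5 in RAW264.7. DESeq2 called 6 at day 1 and 10 in control wounds from day 7 to 14. Limma-voom called 11, 34 and 23 at days 1, 7 and 14, 23 in control wounds from day 7 to 14, 18 and 27 in hydrogel wounds, and 29 for the interaction. With no filter the counts were 10 at day 7 and 3 in control wounds from day 7 to 14, and with a minimum count of 50 the RAW264.7 count was 2. With only the compared groups fitted they were 0, 29 and 9 at days 1, 7 and 14, 2 in control wounds from day 7 to 14 and 21 in hydrogel wounds at that step. With each group's 3 day 7 libraries summed into 1, which is assumed to vary like the other groups, they were 0, 0 and 6, then 3 and 0 in control wounds, 0 and 0 in hydrogel wounds and 2 for the interaction.

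Without control day 1 replicate 1 and control day 14 replicate 1 the counts were 15 and 28 at days 1 and 7, 20 in control wounds from day 7 to 14, 13 and 16 in hydrogel wounds, and 26 for the interaction. An omission of hydrogel day 1 replicate 1 as well, chosen after seeing the data, gave 18, 30 and 24, 26, 20 and 17, and 27 for the same comparisons with day 14 included. Leaving out 1 library at a time gave 1 to 7, 6 to 23 and 6 to 21 at days 1, 7 and 14, 16 to 24 and 1 to 12 in control wounds, 3 to 8 and 2 to 12 in hydrogel wounds, 10 to 24 for the interaction and 4 to 5 in RAW264.7. At day 7 the omission of each control library in turn left 9, 8 and 8 calls, and of each hydrogel library 8, 6 and 9. At day 14 omission of hydrogel replicate 2 or 3 left 8 and 6, and at day 1 omission of hydrogel replicate 3 left 1. Calls that held in every single omission numbered 1 of 3 at day 1 (Col8a1), 6 of 18 at day 7 (Col1a1, Col3a1, Col5a1, Col8a1, Col13a1 and Col17a1) and 6 of 14 at day 14 (Col1a1, Col1a2, Col3a1, Col5a1, Col5a2 and Col8a1).

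With a replicate block the counts were 3, 19 and 15 at days 1, 7 and 14, 22 and 5 in control wounds, 5 and 6 in hydrogel wounds, 12 for the interaction and 5 in RAW264.7. Beyond day 1 the numbers did not pair the libraries by the rule used, and 7 of 12 pairs over all groups correlated best with their own number.

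Over 91 called pairs of chain and comparison, 2530 alternative values gave 0 opposite directions, 2152 still past and 378 no longer past. The direction changed for chains that had not passed. At day 1 without control replicate 1, the log2 fold changes were 0.10 for Col4a1, 0.01 for Col4a2, 0.57 for Col6a1, 0.33 for Col12a1, −0.34 for Col11a1 and 0.73 for Col18a1. With control day 14 replicate 1 left out too they were 0.10, 0.015, 0.58, 0.33, −0.37 and 0.73, and with hydrogel day 1 replicate 1 as well 0.60 for Col6a1, 0.30 for Col12a1, −0.85 for Col11a1 and 0.22 for Col18a1. Limma-voom gave 0.052 for Col4a1, 0.67 for Col6a1, 0.12 for Col12a1, −0.30 for Col11a1 and 0.29 for Col18a1 at day 1, and −0.0093 for Col15a1 at day 14. Col11a1 at day 1 was −0.0078 with no filter, −0.33 without control day 1 replicate 2 and −0.45 without hydrogel day 1 replicate 1, and that last omission gave −0.0011 for Col15a1. Col17a1 at day 14 was 0.44 without control day 14 replicate 3. Over omissions of libraries the day 1 values ran from −1.20 to 0.10 for Col4a1, −1.17 to 0.015 for Col4a2, −1.63 to 0.60 for Col6a1, −1.37 to 0.33 for Col12a1, −0.85 to 1.43 for Col11a1, −0.0011 to 2.56 for Col15a1 and −0.88 to 0.73 for Col18a1, and those of Col17a1 at day 14 from −0.75 to 0.44. The causes of these changes were not tested.

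Without replicate 1, an omission chosen after seeing the data, the collagen share was 0.144% in control wounds at day 1 and 2.34% at day 14. With TMM-scaled library sizes the collagen share was 1.20% in control wounds at day 7 and 0.354% in hydrogel wounds at day 14. Omitting TMM moved the median log2 fold change of all genes by 0.17 for hydrogel against control at day 14, 0.36 and 0.21 in control wounds and 0.22 and 0.38 in hydrogel wounds. Col4a3, Col9a1 and Col10a1 in wounds and 34 chains in RAW264.7 had too few counts to be tested. Whether depth or low expression lay behind this was not tested.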

Other observations

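Among neighbouring collagen genes, Col3a1 and Col5a2, which lie tail to tail on chromosome 1 with 26932 bases between them, had log2 fold changes of −3.30 and −1.89 at day 7 and −4.56 and −3.09 at day 14. Col6a1 and Col6a2, on the same strand of chromosome 10 and 85161 bases apart, had −1.97 and −2.12 at day 7 and −2.25 and −2.04 at day 14. Col6a5 and Col6a6, on the same strand of chromosome 9 and 27917 bases apart, had 0.92 and 0.37 at day 7 and −2.11 and −0.95 at day 14. Col6a5 and Col6a4, 28810 bases apart on that strand, had 0.92 and 0.44 at day 7 and −2.11 and 0.11 at day 14.

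Of the remaining marker lists, the 3 erythrocyte markers summed to 96.9 to 123 CPM in hydrogel wounds and 971 to 1008 CPM in control wounds at day 7, with all 3 lower. The 5 suprabasal keratinocyte markers summed to 298 to 372 CPM in hydrogel wounds and 52.7 to 55.6 CPM in control wounds at that day, with 2 of 5 higher. Among all genes 11.7% were lower and 9.86% higher at day 7. The 4 Schwann cell markers summed to 359 to 955 CPM and 1301 to 1312 CPM, and the 4 chondrocyte markers to 27.8 to 45.3 CPM and 13.1 to 14.9 CPM at that day.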
